A study of Mus musculus with 2 samples.

Results

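The genes described here are 9 genes of metal handling out of the 27998 genes in the deposited matrices: Mt1, Mt2, Fth1, Ftl1, Slc40a1, Hmox1, Slc11a1, Slc30a1 and Trf. They were chosen by name, with earlier results of these data known. All 9 were present in both libraries. Each had a mean of at least 10 UMIs per 1000000 UMIs of a library (CPM). UMIs are unique molecular identifiers, each standing for 1 captured transcript. They were followed in macrophages of the mouse small intestine, in 1 library from wild-type animals (genotype WT, male C57BL/6J from Janvier) and 1 from knockout animals (genotype CCR2-/-, JAX strain 004999, bred in-house; sex and age were not given for this group). Ccr2 is the receptor through which monocytes leave the bone marrow for tissues. In each genotype 3 to 4 intestines were pooled before sorting live CD45+ CD11b+ MHCII+ CD64+ cells that lacked CD3, TCRb, B220, SiglecF, Ly6C and Ly6G. The wild-type cells ran on 2 lanes, which serve as a technical yardstick. Genotype, animal source and library were the same split and cannot be told apart, so no test between genotypes was possible and the intervals given are of counting error alone.

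Metallothioneins are small cysteine-rich proteins that bind zinc and copper, and their genes are switched on by the zinc-sensing factor MTF1. Tissue macrophages also recycle iron from ageing red cells: haem oxygenase opens the haem ring, ferritin cages store the released iron, and ferroportin exports it to transferrin in the blood. Translation of both ferritin chains is held back, when iron is scarce, by proteins that bind a hairpin in the transcript.

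A filter of at least 200 genes and no more than 10% mitochondrial UMIs left 2612 knockout cells with 7265386 UMIs and 3016 wild-type cells with 20678108 UMIs. The median cell held 2439 UMIs in the knockout and 6129 in the wild type, so shares of cells are given after each cell was thinned at random to 1000 UMIs. Ccr2 itself stood at 6.88 CPM in the knockout and 331 in the wild type. Summed macrophage markers stood at 10716 and 14277 CPM, with all 8 detected in both libraries. The knockout and lane 1 shared 6 barcodes, the knockout and lane 2 shared 0, and the wild-type lanes shared 5. Markers of other cells moved with genotype: the 6 fibroblast markers summed to 245 CPM in the knockout and 27.9 in the wild type, the 6 endothelial markers to 212 and 55.7, and the 8 monocyte markers to 251 and 722. The monocyte list includes Ccr2 itself, at the levels given above, so its sum is not independent of the genotype. The part of these other cells in the results below was not tested.

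Mt1 and Mt2 are neighbours on chromosome 8 (GRCm38, GENCODE M21), Mt2 at 94172664 to 94173568 and Mt1 at 94179082 to 94180327, both on the plus strand with 5513 bases between them. Hmox1 lies on the same chromosome at 75093621 to 75100589, Slc40a1, Slc11a1 and Slc30a1 on chromosome 1, Ftl1 on chromosome 7, Trf on chromosome 9 and Fth1 on chromosome 19. The 250 bases before the RefSeq start of both genes, and of the zinc exporter gene Slc30a1, are shown because these are the members with a known zinc response. Capitals mark matches on either strand to TGCACNC or TGCGCNC, the core letters of the metal response element bound by MTF1.

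Mt1, chr8:94178839-94179088, plus strand: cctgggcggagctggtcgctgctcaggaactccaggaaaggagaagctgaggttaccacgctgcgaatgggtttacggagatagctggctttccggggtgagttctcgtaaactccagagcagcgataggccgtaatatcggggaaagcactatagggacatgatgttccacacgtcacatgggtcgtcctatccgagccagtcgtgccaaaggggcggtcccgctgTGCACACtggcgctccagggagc

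Mt2, chr8:94172368-94172617, plus strand: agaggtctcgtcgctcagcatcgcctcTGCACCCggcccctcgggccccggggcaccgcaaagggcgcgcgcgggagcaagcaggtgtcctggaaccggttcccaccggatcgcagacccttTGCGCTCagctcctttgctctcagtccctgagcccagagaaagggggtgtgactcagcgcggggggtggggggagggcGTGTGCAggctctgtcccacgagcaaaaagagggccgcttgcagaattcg

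Slc30a1, chr1:191906531-191906780, plus strand: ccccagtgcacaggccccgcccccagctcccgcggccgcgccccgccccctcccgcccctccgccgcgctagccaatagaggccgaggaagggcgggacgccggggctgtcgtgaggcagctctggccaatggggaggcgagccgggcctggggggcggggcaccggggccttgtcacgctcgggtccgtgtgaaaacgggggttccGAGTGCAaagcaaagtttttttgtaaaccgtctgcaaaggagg

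The Mt2 window held 3 matches, 223, 128 and 50 bases before the start, and the Mt1 and Slc30a1 windows held 1 each, 23 and 43 bases before it. Of 32851 RefSeq promoter windows of the same 250 bases (GRCm38.p6), 21.4% held at least 1 match and 1.26% held at least 3. The windows of Fth1, Ftl1 and Slc11a1 held 0 matches. The windows follow RefSeq starts, which differ from the GENCODE starts given above. The GENCODE start of Mt1 (94179082) lies inside its window, and that of Mt2 (94172664) lies beyond the end of its window. The counts may therefore depend on the start used, cannot be compared between the genes, and leave out sites beyond the windows. A match describes letters only.

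Both metallothionein transcripts were more abundant in the knockout library. Mt1 stood at 773 CPM in the knockout (753 to 794) and at 315 in the wild type, with 307 in lane 1 and 335 in lane 2. The knockout value lay above both lanes, a 2.45-fold difference (2.37 to 2.54). Mt2 stood at 63.2 CPM in the knockout (459 UMIs) and at 3.68 in the wild type (76 UMIs), with 4.12 in lane 1 and 2.62 in lane 2. The ratio of Mt2 was 17.2 (13.5 to 22.2). Its log2 ratio with a pseudocount of 1 CPM was 3.78, and 6 of the 7401 genes with a mean of at least 10 CPM had a higher log2 ratio. In macrophage-like cells the ratio of Mt2 was 9.16 (6.34 to 13.6). This class leaves out cluster 6, described below, which held 54.5% of the knockout Mt2 UMIs. With a pseudocount of 10 CPM the log2 ratio of Mt2 was 2.42 in place of 3.78. Set against Mt1 in the same library, Mt2 gave 8.17 UMIs per 100 of Mt1 in the knockout (7.41 to 8.99) and 1.17 in the wild type (0.917 to 1.46). Mt1 and Mt2 encode similar proteins, and how reads shared between such genes were counted is not given in the sources used here.

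**Figure D1:**
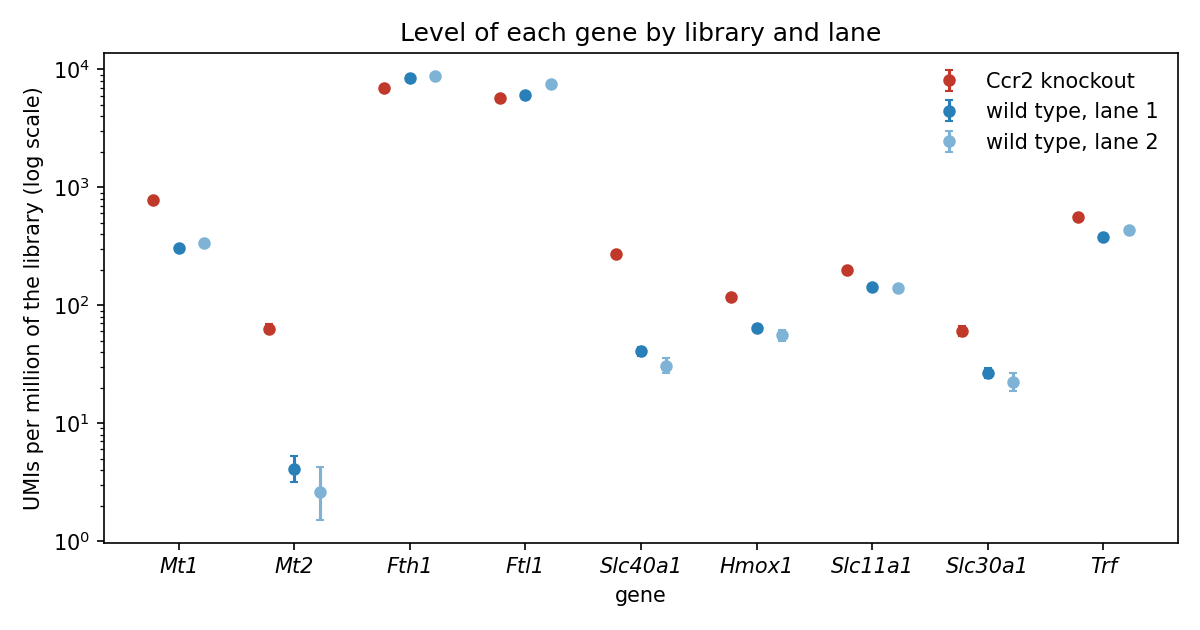
CPM of each gene (log scale) in the knockout library and the 2 wild-type lanes, with 95% Poisson intervals. Mt2 and Slc40a1 show the widest gaps between the knockout and both lanes, while Fth1 and Ftl1 lie lowest in the knockout.

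Slc30a1 encodes ZnT1, which moves zinc out of the cell across the plasma membrane. Its level was 60.3 CPM in the knockout and 25.4 in the wild type, with 26.7 in lane 1 and 22.3 in lane 2. The ratio of Slc30a1 was 2.37 (2.09 to 2.70). In cells of 2000 to 4000 UMIs its log2 ratio was 0.50 in place of 1.22, below 2-fold.

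Among the iron genes, the exporter differed most. Slc40a1, which encodes ferroportin, stood at 270 CPM in the knockout (258 to 282) and 37.7 in the wild type (35.1 to 40.4). The lanes read 40.6 and 30.8, both far below the knockout, and the ratio was 7.17 (6.59 to 7.80). In cells of 2000 to 4000 UMIs the log2 ratio of Slc40a1 was 1.95 in place of 2.81.

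The ferritin chains went the other way by a small margin. Fth1, the heavy chain that oxidises iron for storage, stood at 6994 CPM in the knockout and 8540 in the wild type, a log2 ratio of -0.29. Ftl1, the light chain, stood at 5720 and 6514, a log2 ratio of -0.19, and the lanes themselves read 6085 and 7537. In cells of 2000 to 4000 UMIs the sign for Ftl1 turned, to 0.33. The ratio of Fth1 to Ftl1 UMIs was 1.22 in the knockout and 1.31 in the wild type, with 1.38 and 1.17 in the lanes, so the knockout lay between the lanes. Both ferritin transcripts carry the iron-responsive hairpin near their start, shown because it is the site of translational control that UMI counts do not read; capitals mark the 6 loop bases found as CAGTGN preceded by a C and 5 further bases in GENCODE M21 transcripts.

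Fth1-201, bases 84 to 113: ggtttcctgcttcaaCAGTGCttgaacgga

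Ftl1-201, bases 75 to 104: tgtgtcttgcttcaaCAGTGTttgaacgga

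Hmox1, the inducible haem oxygenase, stood at 117 CPM in the knockout and 61.8 in the wild type, with 64.3 and 55.8 in the lanes, a ratio of 1.90 (1.74 to 2.07). Slc11a1, the divalent metal transporter NRAMP1 of the phagosome, stood at 198 and 141, a ratio of 1.40 (1.31 to 1.49). Trf, which encodes transferrin, the iron carrier of plasma, stood at 560 and 397, a ratio of 1.41 (1.36 to 1.47). For all 3 genes the knockout lay above both lanes. Across wild-type cells the genes most correlated with Trf were Apoe (r = 0.21), Cst3 (0.20) and Lyz2 (0.20), and across knockout cells Ccl2 (0.21), Marcksl1 (0.20) and Pf4 (0.20), all in single libraries. Among clusters with at least 50 cells of a library, Trf was highest in cluster 6 of both libraries, at 1211 CPM in the knockout and 2002 in the wild type.

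Of the 9 genes, 4 (Mt1, Mt2, Slc40a1 and Slc30a1) were at least 2-fold apart, all higher in the knockout, where 12.2% of all 7401 genes were at least 2-fold apart 9.04% at least 2-fold higher and 3.12% at least 2-fold lower. 7 of the 9 were higher in the knockout, against 62.3% of all genes. The median log2 ratio was 0.91 over the 9 genes and 0.18 over all genes. Because the 9 genes were chosen with earlier results of these data known, these counts and medians are a description. Between the wild-type lanes, 0.878% of genes were at least 2-fold apart, and the log2 differences of the 9 genes ranged from -0.50 to 0.31.

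At equal depth the order of the libraries was the same in shares of cells. Mt1 was detected in 39.0% of the 2416 cells of the knockout (37.1% to 41.0%) and in 24.4% of the 3015 of the wild type (22.9% to 26.0%). Mt2 was detected in 3.97% and 0.332%, Slc40a1 in 21.6% and 4.28%, and Slc30a1 in 6.04% and 2.65%. Hmox1 was detected in 10.4% and 7.10%, Slc11a1 in 18.3% and 12.1%, and Trf in 37.0% and 29.2%. Fth1 was found in 97.0% and 99.6% and Ftl1 in 93.1% and 96.5%. Without thinning, the wild-type shares were the higher ones for Mt1 (59.0% against 64.5%), Hmox1 (20.5% against 27.2%), Slc11a1 (36.1% against 52.9%), Slc30a1 (13.3% against 14.9%) and Trf (60.3% against 74.3%).

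**Figure D2:**
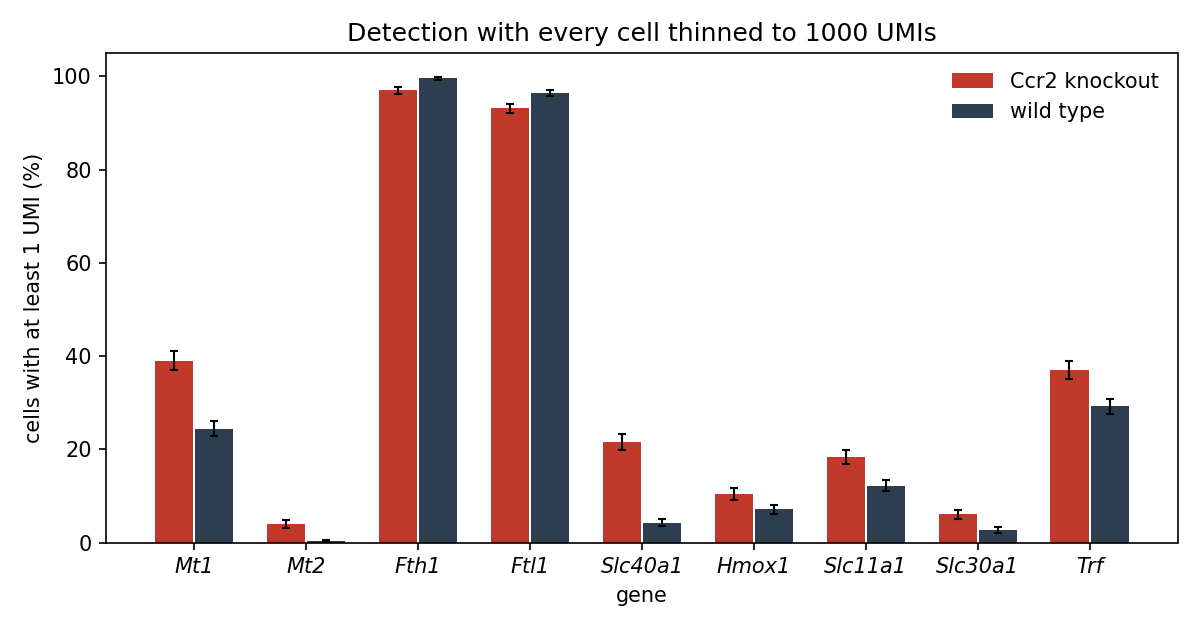
Share of cells with at least 1 UMI of each gene after thinning every cell to 1000 UMIs, with 95% Clopper-Pearson intervals. Mt1, Mt2, Slc40a1, Hmox1, Slc11a1, Slc30a1 and Trf stand higher in the knockout.

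The lymphoid-like cells in the same libraries gave a measure of free RNA, with 49 knockout and 39 wild-type cells at this depth (median 2235 and 7559 UMIs before thinning). Mt2 was found in 4.08% of the knockout ones (0.498% to 14.0%), no lower than in all knockout cells. Of the 21 Mt2 UMIs in knockout lymphoid-like cells, 20 lay in the 13 plasma cells, 10 of them in 1 cell. Mt2 stood at 298 CPM (182 to 461) in these plasma cells, above its level over all knockout cells. For Mt2 the lymphoid-like share is therefore no clean measure of free RNA, and the share over all cells cannot be read against it. The T and B cells among the lymphoid-like cells held 1 Mt2 UMI in 37 cells. Slc40a1 was found in 4.08% of knockout lymphoid-like cells, Hmox1 in 0 of 49 (up to 7.25%) and Mt1 in 20.4%, each below the share over all knockout cells. In the wild type, Mt1 was found in 17.9% of the lymphoid-like cells, Mt2, Slc40a1 and Hmox1 in 0 of 39 (up to 9.03% each) and Trf in 25.6% (13.04% to 42.1%), beside 29.2% over all wild-type cells. In the 17 wild-type T and B cells Hmox1 stood at 75.8 CPM (7 UMIs, 30.5 to 156) and Slc30a1 at 32.5 CPM (3 UMIs, 6.70 to 94.9), and both intervals include the level over all wild-type cells. In the 37 knockout ones Slc30a1 stood at 24.3 CPM (2 UMIs, 2.94 to 87.7), an interval that also includes the level over all knockout cells. Mt2 stood at 12.1 CPM (0.307 to 67.7) in the knockout T and B cells and at 0 in the wild-type ones (up to 39.9). Slc40a1 stood at 21.7 CPM (2.62 to 78.2) in the wild-type ones. These intervals also include the levels over all cells of the library. By the T and B cells alone, the wild-type levels of Hmox1 and Slc40a1 could not be told apart from free RNA. The same held for Mt2 and Slc30a1 in both libraries. Some clusters of the joint clustering described below stood under the level over all cells of their library. Wild-type Slc40a1 stood at 3.74 CPM (2.42 to 5.53) in cluster 2 and at 85.9 in cluster 4. Knockout Mt2 stood at 10.1 CPM (6.83 to 14.5) in cluster 0, and knockout Slc30a1 at 11.8 (5.10 to 23.3) in cluster 6. The part of free RNA in these levels was not tested. The knockout T and B cells held 0 UMIs of Hmox1 (up to 44.8 CPM). Trf stood at 108 CPM (51.9 to 199) in the wild-type T and B cells, below its level over all wild-type cells.

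Mt2 was unevenly spread over the knockout cells. It was present in 210 of 2612 cells before thinning, and 25 cells with at least 5 UMIs held 38.8% of its 459 UMIs. The highest cell held 20 Mt2 UMIs beside 12 of Mt1. In joint clustering of both libraries, cluster 6, macrophage-marker-positive but led by Cbr2, F13a1, Mt2 and Vcam1 and left unnamed, held 7.89% of knockout cells and 54.5% of their Mt2 UMIs. It held 22.6% of the Mt1 UMIs, 20.2% of the Trf UMIs and 1.83% of the Slc30a1 UMIs. Mt2 helped to define this cluster, so these levels are a description. Per 100 Mt1 UMIs, knockout cells gave 19.7 Mt2 UMIs in cluster 6 (17.2 to 22.6), 7.89 in cluster 1 (6.50 to 9.51) and 1.48 in cluster 0 (0.998 to 2.12).

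Levels within clusters that both libraries filled with at least 50 cells were not uniform. In cluster 0, with 1067 knockout and 107 wild-type cells, Mt1 stood at 683 and 766 CPM, a ratio of 0.892 (0.794 to 1.004), while Slc40a1 stood at 256 and 108, a ratio of 2.37 (1.77 to 3.26). In cluster 6, with 206 and 56 cells, Mt1 stood at 1871 and 577 and Mt2 at 369 and 34.7, whereas Hmox1 stood at 145 and 148. Slc40a1 in cluster 6 stood at 139 and 91.4, a ratio of 1.52 with an interval that included 1 (0.992 to 2.39). In cluster 8, with 54 and 76 cells, Slc40a1 stood at 91.8 and 7.57 CPM. The ratio of Hmox1 was 0.995 (0.671 to 1.53) in cluster 0, 0.977 (0.683 to 1.41) in cluster 6 and 1.42 (0.632 to 3.00) in cluster 8. That of Trf was 1.11 (0.930 to 1.34), 0.605 (0.545 to 0.672) and 1.12 (0.805 to 1.53), so Trf was lower in the knockout in cluster 6. That of Slc11a1 was 0.860 (0.713 to 1.04), 1.55 (1.04 to 2.38) and 1.57 (0.994 to 2.42). Slc30a1 stood at 141 and 35.98 CPM in cluster 8, at 84.4 and 91.7 in cluster 0 (a ratio of 0.920, 0.657 to 1.32) and at 11.8 and 12.6 in cluster 6 (8 and 4 UMIs), so it was higher in the knockout in 1 of the 3 clusters. The macrophage-like class left out clusters 2 and 6, although both reached the level set for all 8 macrophage markers. Over all macrophage-like cells (2108 and 1967), the log2 ratio was 0.96 for Mt1, just under 2-fold, 2.84 for Mt2, 2.41 for Slc40a1 and 1.20 for Slc30a1. Different clusters held most of these cells in each library, clusters 0 and 1 in the knockout and clusters 3, 4 and 5 in the wild type. Among the wild-type clusters with at least 50 cells, the monocyte-marked cluster 2 (769 cells, 25.5% of that library) had the lowest Slc40a1, 3.74 CPM.

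**Figure D3:**
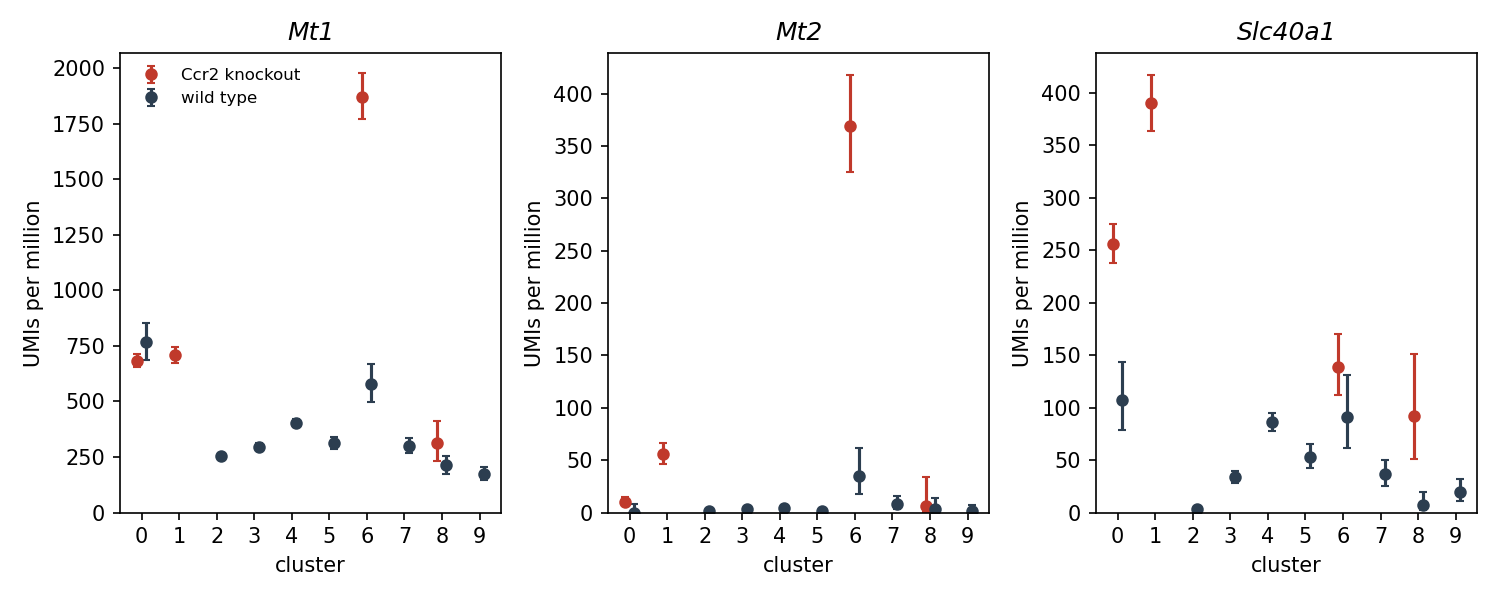
CPM of Mt1, Mt2 and Slc40a1 in each cluster with at least 50 cells of a library, with 95% Poisson intervals. Mt1 and Mt2 peak in cluster 6 of the knockout, at 1871 and 369, and Slc40a1 in cluster 1, at 390.

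Mt1 was detected more often in cells with Mt2 than in cells without it. In the thinned knockout cells, Mt1 was detected in 71 of 96 cells with Mt2 (74.0%, 64.0% to 82.4%) and in 37.6% of 2320 cells without it. Cells with Mt2 held a mean of 2.60 Mt1 UMIs and those without held 0.637, with median depths before thinning of 2778 and 2579 UMIs. Of the cells with Mt2, 47.9% lay in cluster 6. Among macrophage-like knockout cells alone, which leave cluster 6 out, Mt1 was found in 60% of 45 cells with Mt2 (44.3% to 74.3%) and in 36.9% of those without. In the wild type Mt1 was found in 6 of 10 cells with Mt2 (60%, 26.2% to 87.8%) and in 24.3% of the others. Mt1 was also the gene most correlated with Mt2 across knockout cells, among 2679 genes found in at least 5% of them (Pearson's r = 0.27 over 2416 cells of 1 library), followed by Vcam1 (0.18) and Marcksl1 (0.18). Across wild-type cells, where 10 thinned cells held Mt2, Mt1 was not among the 5 genes most correlated with Mt2. Those were led by Tex261 (0.10) and Irf1 (0.096).

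For Slc30a1, whose protein lowers cell zinc, no such difference was measurable. Knockout cells with Slc30a1 held Mt1 in 32.9% and those without in 39.4%, a difference of -6.55 percentage points (-13.9 to 1.67). Slc40a1 was found in 20.8% of knockout cells with Mt2 and 21.6% of those without.

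Cd163, the scavenger receptor for haemoglobin bound to haptoglobin, stood at 149 CPM in the knockout and 34.8 in the wild type. Knockout cells with Cd163 held Trf in 54.6% and those without in 34.6%, a difference of 19.97 points (13.9 to 25.9). The differences were 7.48 points for Slc40a1 (2.34 to 13.1), 6.70 for Hmox1 (2.70 to 11.5), 6.67 for Mt2 (3.66 to 10.7) and 9.21 for Mt1 (3.22 to 15.3). Slc30a1 was found less often in cells with Cd163, a difference of -3.41 points (-5.23 to -0.592). In the wild type the intervals for Trf, Slc40a1 and Mt2 lay above 0, and those for Mt1, Hmox1 and Slc30a1 included 0. For Mt2 this rested on 2 of 110 cells with Cd163, both in lane 1. In lane 2 alone, with 25 Cd163 cells, the intervals for Trf, Slc40a1 and Mt2 included 0. Cd163 itself differed by cluster, at 16.2 CPM in knockout cluster 0, 303 in cluster 1 and 360 in cluster 6. The part of cluster membership in these differences was not tested.

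Haemoglobin transcripts also differed between the libraries. At least 1 UMI of an Hba- or Hbb- gene was present in 66.3% of the cells from the knockout and 8.52% of those from the wild type, where lane 1 had 11.3% and lane 2 had 2.09%. At equal depth the shares were 36.6% in the knockout and 1.53% in the wild type. In the knockout 8 cells with at least 5% haemoglobin UMIs held 94.0% of the 53979 haemoglobin UMIs, and in the wild type 1 lane 1 cell held 98.2% of 15727. Outside those cells haemoglobin stood at 448 CPM in the knockout and 13.4 in the wild type, with 17.6 in lane 1 and 3.44 in lane 2. It stood at 515 CPM in the lymphoid-like cells of the knockout.

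After thinning and without the haemoglobin-high cells, 877 knockout cells had a haemoglobin UMI and 1531 had none. Mt1 differed by -2.05 points between them (-6.06 to 2.01), Mt2 by 0.365 (-1.21 to 2.13), Slc40a1 by -0.493 (-3.85 to 2.97) and Hmox1 by 0.643 (-1.84 to 3.29). The intervals of all 9 knockout differences included 0. Spearman's rho with the haemoglobin count lay between -0.031 and 0.011 for the 9 genes. The 8 haemoglobin-high cells held 2 UMIs of Mt1, 0 of Mt2, 2 of Slc40a1 and 1 of Hmox1. Without these cells the log2 ratios were 1.30 for Mt1, 3.79 for Mt2 and 2.82 for Slc40a1.

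**Figure D4:**
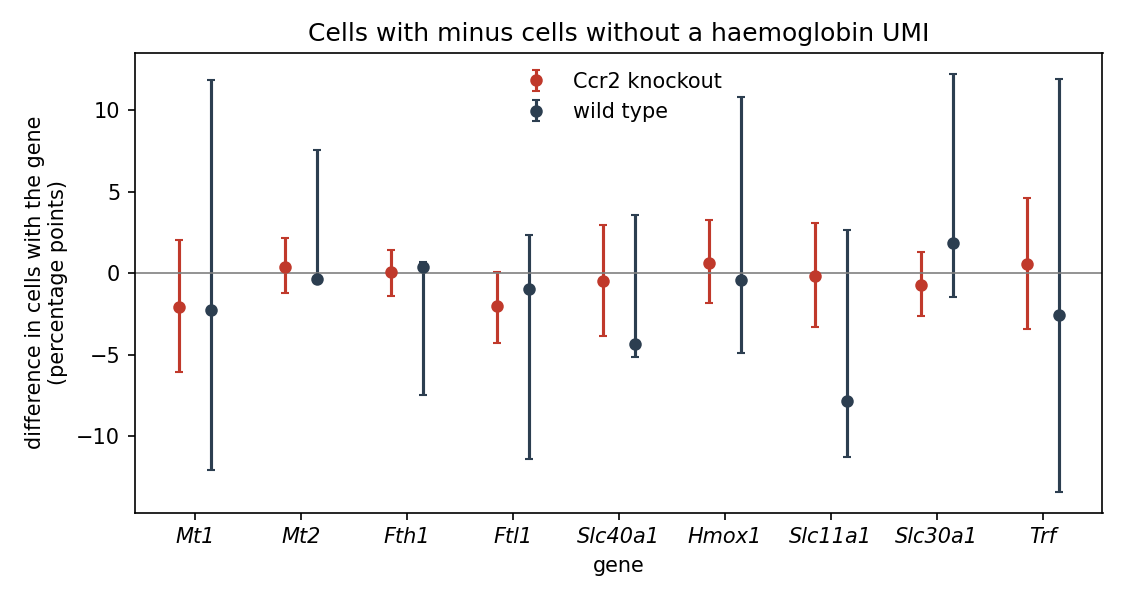
Difference in the share of thinned cells with each gene, cells with a haemoglobin UMI minus cells without, in percentage points with 95% Newcombe intervals. All 9 knockout intervals include 0, and the wild-type intervals are wide because 45 cells had haemoglobin.

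Other genes of the same pathways were followed by list, with all lists chosen when earlier results of these data were known. Their counts stand beside the 9.04% of all genes that were at least 2-fold higher and the 3.12% at least 2-fold lower. Of 13 further metallothionein and zinc genes above 10 CPM, 1 was at least 2-fold higher in the knockout, the zinc importer Slc39a1 (124 against 51.1), a share near that of all genes, and Mtf1 stood at 24.8 and 22.1. The median log2 ratio of that list was 0.19, beside 0.18 over all genes. Of 8 copper genes 1 was 2-fold lower, Commd1. Of 2 iron export genes above that level, Cp, the ferroxidase ceruloplasmin, was higher (122 against 53.1). All 4 haem breakdown genes were lower by less than 2-fold, among them Blvrb, a biliverdin reductase (178 against 247). Of 14 Nrf2 and Bach1 genes 4 were at least 2-fold higher, led by Maff (35.4 against 9.67) and Osgin1 (37.7 against 14.2), and 0 were 2-fold lower, with a median log2 ratio of 0.59. Of 5 iron-recycling macrophage genes 1 was 2-fold higher, the adhesion molecule Vcam1 (175 against 15.8), while the median log2 ratio of the list was 0.03. Its other members ran from Treml4 (21.9 against 34.1) and Nr1h3 (25.2 against 35.8), lower by less than 2-fold, to Axl (266 against 153).

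All 14 immediate-early genes were at least 2-fold higher in the knockout, summing to 27389 CPM against 7479, while 3 of 8 heat-shock genes were 2-fold lower. Over all genes, 9.04% were at least 2-fold higher and 3.12% at least 2-fold lower. Of 5 glucocorticoid-responsive genes 3 were 2-fold higher, Per1 most (85.7 against 24.95). Metallothionein genes respond to glucocorticoids as well as to zinc, and the part of these differences in the metallothionein levels was not tested. Across thinned knockout cells, Spearman's rho with the glucocorticoid-responsive UMIs was 0.0089 for Mt1 and 0.0065 for Mt2. With the immediate-early UMIs it was 0.041 and 0.093. In wild-type cells the values were 0.023 and 0.0085, and 0.077 and 0.0056. The genes most correlated with Mt1 were Btg2 (r = 0.09) in the wild type and Ftl1 (0.17) in the knockout.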

How the data were processed

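Per the labels' protocols, libraries were made with the 10x Genomics 3′ v2 kit. Cell Ranger 3.0.1 and the build mm10 are named in the submitters' processing notes. The deposited values are raw UMI counts per gene and cell, as the authors' matrices hold whole numbers. The 9 genes and all gene lists were chosen with earlier results of these data known.

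From these counts, UMIs were summed per library and scaled to 1000000 (CPM). Log2 ratios used a pseudocount of 1 CPM, and shares over all genes used genes with a mean of at least 10 CPM. Intervals at the 95% level are exact Poisson, conditional binomial, Clopper-Pearson or Newcombe. Cells were thinned to 1000 UMIs without replacement (seed 1), which left out shallower cells, 196 in the knockout and 1 in the wild type. Doublets were kept in the main values and removed for clustering (Scrublet, top 0.8% per 1000 cells). Clustering of both libraries used 2000 variable genes, 30 components, 15 neighbours and Leiden resolution 0.8 (scanpy 1.11.5, leidenalg 0.10.2). A cluster was macrophage-like with at least 6 of 8 markers and no other type's markers leading. The thresholds of this naming rule were set after clusters had been seen. Intervals and thinning were tested on simulated data. Genes were named as follows: all 9, the adult haemoglobin genes, up to 3 genes per list with the largest absolute log2 ratio, and the 5 genes most correlated with Mt1, Mt2, Hmox1, Slc40a1 and Trf. Ccr2, Mtf1, Nr1h3, Cbr2 and F13a1 fall outside this rule and were named after their values were seen. Alternatives covered cell filters, doublets, depth, lanes, scaling, pseudocount and the minimum level.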

Additional observations from a re-analysis of the deposited data

How the results depend on the processing

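The count of genes at least 2-fold apart stayed between 3 and 5 of 9 over the 12 alternatives, and the count higher in the knockout was 7, or 8 in cells of 2000 to 4000 UMIs. Ftl1 changed sign there, to 0.33. Log2 ratios ranged from 0.96 to 1.35 for Mt1, 2.42 to 4.15 for Mt2, 1.95 to 3.09 for Slc40a1, 0.50 to 1.40 for Slc30a1 and 0.44 to 1.10 for Hmox1. Hmox1 passed 2-fold against lane 2 alone (1.06) and with the stricter cell filter (1.10). Slc30a1 fell under 2-fold with a pseudocount of 10 CPM (0.99). Size factors from the median of ratios set the median of all genes to 0 from 0.18, and the directions of the 9 genes were as before. The share of knockout cells with Mt2 that held Mt1 was 58.1% at 500 UMIs, 84.4% at 2000 UMIs, 85.2% without thinning and 60% in macrophage-like cells. The haemoglobin difference for Mt1 or Mt2 was 12.9 points without thinning, where depth was not equal; the cause was not tested. In wild-type cells, lane 2 alone had 2 cells with Mt2. No paired analysis was possible because each genotype had 1 library and the labels give no shared replicate numbers. The number of libraries limits every comparison between genotypes, and the 76 wild-type Mt2 UMIs limit statements on Mt2 in single wild-type cells.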
